A study of Rattus norvegicus with 6 samples.

Results

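The Kruppel-like factor (KLF) family was examined in RNA-seq libraries of neonatal rat cardiac fibroblasts (NRCFs). The members were followed by symbol: Klf2, Klf3, Klf4, Klf5, Klf6, Klf7, Klf9, Klf10, Klf13 and Klf15. They made up 10 of the 21857 gene symbols counted. All 10 were among the 12941 genes with enough counts to be tested. Compared with Vector, Klf5, Klf15, Klf4 and Klf13 were higher in the libraries labelled FTO, and Klf2, Klf6, Klf7 and Klf9 were lower. Klf5 was 4.79-fold higher and Klf2 was 7.25-fold lower, and these were the widest changes among the 10 members in either direction. Klf3 and Klf10 did not pass the test.

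NRCFs are primary cells grown from newborn rat hearts, here from pups no older than 3 days. The design text names Sprague-Dawley rats, whereas the strain label of every library reads "Noway". Both groups were transfected with pcDNA 3.1 and were collected after 48 h. One group received the plasmid with the rat cDNA of FTO, an enzyme that removes the N6-methyladenosine mark from RNA, and carries the genotype label "FTO overexpression". The other received the empty plasmid (Vector) and carries the label "WT". Each group had 3 libraries of total RNA, made with a NEBNext Ultra kit and read on an Illumina instrument. Nothing in the labels says that replicates came from separate cultures, so p-values measure only the spread between these samples. That spread was uneven. Chi-square per degree of freedom, which grows with spread beyond counting error, was 1.58 to 2.16 between pairs of Vector libraries. It was 3.36 to 8.38 between pairs labelled FTO, and the test used a shared estimate of the spread. The labels give no batch.

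The libraries held 13178952 to 17857999 counts, so that 3 counts were worth 0.168 to 0.227 CPM, the unit that scales the counts of each library to the same total. All levels below are CPM after TMM scaling, which corrects library size for composition. Fto itself was at 88.3 ± 1.2 CPM in Vector and 92.3 ± 1.32 CPM in the group labelled FTO (mean ± SD of 3 libraries, as throughout, adjusted p = 0.239). No rise of the transfected gene was therefore detected, and the groups are called here by their labels. For cardiac fibroblasts given the FTO plasmid, the paper reports qRT-PCR evidence of transfection and a lower level of N6-methyladenosine. The paper does not say that those measurements were made on these samples. All 10 fibroblast markers, among them Col1a1, Pdgfra and Vim, were counted in both groups. Of them, 5 were higher in the libraries labelled FTO and 5 lower, beside 33.2% and 32.8% of all tested genes. The summed level of the 10 markers was 41418.9 to 42003.7 CPM in Vector and 21576.5 to 22558.9 CPM in the libraries labelled FTO. Most of that sum was Col1a1 (from 25809.0 to 8267.8 CPM) and Col3a1 (from 10699.4 to 3337.6 CPM), whereas Pdgfra rose from 173.4 to 976.4 CPM and Dcn from 47.0 to 5610.5 CPM.

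KLF proteins are transcription factors that bind GC-rich and CACCC sequences through a run of zinc fingers near their carboxyl end. The ends outside the zinc fingers differ, and they decide which partners a member recruits. KLF3 and its close relatives bind the corepressor CtBP. KLF2, KLF4, KLF5, KLF6 and KLF7 are best known as activators, although several can also repress. KLF9, KLF10 and KLF13 bind the Sin3A corepressor, and KLF15 stands apart. In the heart, KLF5 is known from fibroblasts and KLF15 from cardiomyocytes, while KLF2 and KLF4 are known from the endothelium and from macrophages.

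Adjusted p-values throughout are from the quasi-likelihood test of edgeR over all tested genes, two-sided. With an adjusted p under 0.05, 8 of the 10 members were called, beside 65.9% of all tested genes. Of these, 4 were higher in the libraries labelled FTO, beside 33.2% of all genes, and 4 were lower, beside 32.8%. A large part of the transcriptome differed between the groups, and the members' count lies near that background. The groups did not overlap in CPM for 8 members, beside 70.3% of all genes. By the threshold stated in the study's methods, at least 2-fold with an unadjusted p under 0.05, 4 members passed, beside 19.6% of all genes. These were Klf4, Klf5 and Klf15, which were higher, and Klf2, which was lower. The median log2 fold change of the members was -0.02 and their median absolute log2 fold change was 0.65. Over all tested genes these medians were 0.0 and 0.36.

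**Figure D1:**
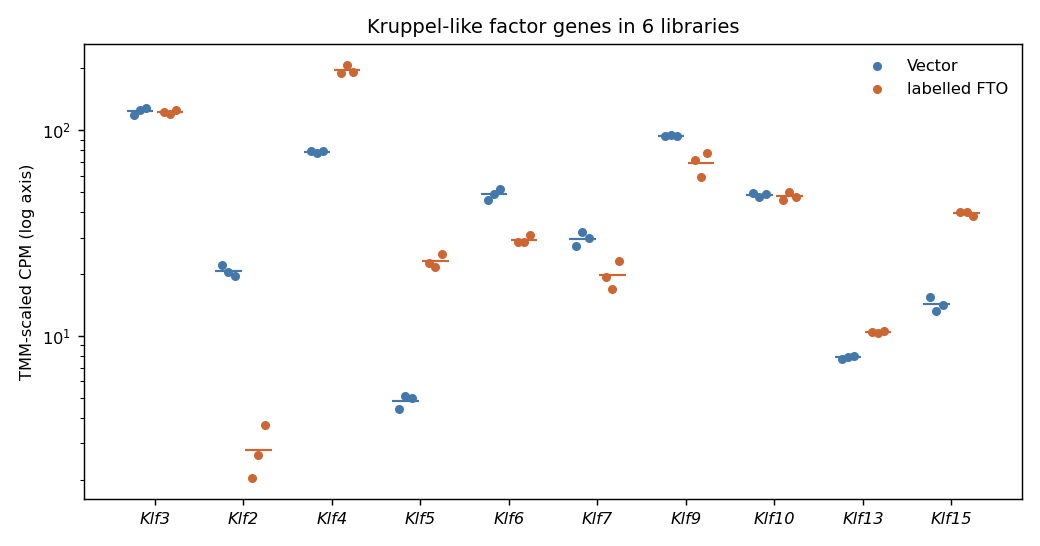
TMM-scaled CPM of the 10 members on a log axis, with 1 point per library and a line at the mean of 3 libraries, Vector in blue and the libraries labelled FTO in orange. The groups are apart for every member but Klf3 and Klf10, and the gap is widest for Klf2 and Klf5.

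The sequence before the transcription start was taken from RefSeq (build GRCr8), which gave a 250-base window for 7 of the 10 members. Klf2, Klf10 and Klf13 had no entry. For Klf5, Klf6 and Klf9 the window lay outside the whole annotated gene. These 3 are shown because they let a promoter of the member that rose most be set beside those of members that fell. They run 5′ to 3′ on the gene's strand and end at the base before the start. Capitals mark the letters that KLF proteins are known to bind, the CACCC box (CACCC, or GGGTG on the other strand) and the GC box (GGGCGG, or CCGCCC on the other strand). The Klf5 window is chr15:82471831-82472080 on the plus strand, the Klf6 window is chr17:69458479-69458728 on the minus strand and the Klf9 window is chr1:230126396-230126645 on the plus strand.
Klf5: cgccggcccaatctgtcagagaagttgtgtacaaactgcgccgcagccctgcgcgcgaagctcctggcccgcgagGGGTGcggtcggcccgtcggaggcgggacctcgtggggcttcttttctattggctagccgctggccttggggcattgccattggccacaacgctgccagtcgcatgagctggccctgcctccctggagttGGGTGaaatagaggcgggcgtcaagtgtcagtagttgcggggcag
Klf6: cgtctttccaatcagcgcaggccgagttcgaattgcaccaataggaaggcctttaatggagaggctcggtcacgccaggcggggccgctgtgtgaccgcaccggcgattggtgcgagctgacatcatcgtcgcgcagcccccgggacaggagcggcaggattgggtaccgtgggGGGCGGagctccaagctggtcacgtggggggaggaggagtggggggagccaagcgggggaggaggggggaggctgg
Klf9: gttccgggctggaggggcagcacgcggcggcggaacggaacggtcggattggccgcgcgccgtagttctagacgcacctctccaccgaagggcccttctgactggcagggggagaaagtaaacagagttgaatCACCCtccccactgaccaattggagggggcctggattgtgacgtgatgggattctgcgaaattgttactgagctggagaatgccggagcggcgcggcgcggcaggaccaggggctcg

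The Klf5 window held 2 CACCC boxes and no GC box, the Klf6 window 1 GC box and no CACCC box, and the Klf9 window 1 CACCC box. All 3 were rich in G and C, at 65.2%, 67.2% and 63.6%, against a median of 51.2% over the 33469 windows of the table. The windows not shown differed, at 43.2% for Klf4, 52.0% for Klf3, 59.6% for Klf7 and 77.2% for Klf15. Among the 7 members with a window, the CACCC box was found in 5, beside 49.2% of all windows, and the GC box in 2, beside 30.5%. These and the following counts include Klf3, Klf4, Klf7 and Klf15, whose windows did not lie outside the annotated gene. Of those, Klf3, Klf7 and Klf15 held the CACCC box and Klf7 the GC box. The hypoxia response core ACGTG was found in 3 members, at 1 place in Klf6, 1 place in Klf9 and 2 places in Klf15, beside 16.6% of all windows. Matches that overlapped each other, such as both strands of a palindrome, were counted as 1 place, and these letters can also overlap those of other motifs. The AP-1 letters TGANTCA were found in Klf9 only among the 7, beside 6.34% of windows. The CArG box, the site of serum response factor, was found in Klf6 only among the 7, beside 1.5%. The cyclic AMP element TGACGTCA (1.59% of all windows), the interferon element GAAANNGAAA (3.41%), the MEF2 box (0.523%) and the NF-kB site (6.33%) were found in none of the 7. Both strands were searched. These matches describe letters in a window and not sites that were seen to be bound.

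Klf3 encodes a repressor that works through CtBP. It was at 118.6, 125.8 and 127.6 CPM in Vector replicates 1 to 3 and at 123.1, 119.8 and 124.8 CPM in the libraries labelled FTO. The groups overlapped, with every library within a narrow band. The log2 fold change was -0.02 (95% interval -0.12 to 0.08, adjusted p = 0.772), which bounds the ratio of the groups to 0.923 to 1.06. Its relative Klf12, which binds the same corepressor and is not among the 10 members, was at 5.61 ± 0.725 CPM in Vector and 3.91 ± 0.704 CPM in the libraries labelled FTO. It fell by 0.50 on the log2 scale (SE 0.175, adjusted p = 0.0197). The call for Klf12 was lost without Vector replicate 2 (adjusted p = 0.1), without FTO replicate 1 (0.0621) and without FTO replicate 2 (0.0635). Klf8, the third CtBP-binding member, had at most 6 counts in any library and was not tested.

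Klf2, known for quiescence and anti-inflammatory transcription in endothelium and macrophages, was at 22.2, 20.4 and 19.6 CPM in Vector. It was at 2.03, 2.64 and 3.69 CPM in the libraries labelled FTO. All 3 Vector libraries lay far above all 3 of the other group. The low values rest on 29, 35 and 66 counts, against 283 to 304 counts in Vector. Klf2 fell by 2.86 on the log2 scale (SE 0.155, adjusted p = 2.3e-10), and 1.4% of tested genes had a larger decrease. In bulk RNA, fewer cells of a type and less RNA per cell cannot be told apart. Of 9 macrophage markers, 8 were lower and 1 was higher, where 32.8% of all tested genes were lower and 33.2% higher. The higher one was Adgre1, from 6.81 to 31.7 CPM (adjusted p = 8.4e-10). The summed level of the 9 macrophage markers went from 1588.9 to 1643.0 CPM in Vector to 246.4 to 280.9 CPM in the libraries labelled FTO. The largest part of that sum was Lyz2 (from 1116.5 to 97.6 CPM). Of 9 endothelial markers, 7 were tested, of which 4 were higher, 2 were lower and Tie1 did not pass. The sum over all 9 went from 38.8 to 40.2 CPM in Vector to 59.5 to 64.3 CPM in the libraries labelled FTO. Cdh5 was low in both groups but higher in the libraries labelled FTO (1.88 and 5.65 CPM, adjusted p = 5.4e-06). Of the 2 lower markers, Erg went from 4.81 to 1.63 CPM and Esam from 9.87 to 5.38 CPM (adjusted p = 4.7e-05 and 0.00017). Emcn had no count in any Vector library and at most 9 counts in a library labelled FTO. The part of either cell type in the level of Klf2 was not tested. Klf2 also overlaps Eps15l1 in RefSeq, which moved from 61.3 to 52.4 CPM (log2 fold change -0.22, adjusted p = 0.00295), and how reads in the overlap were assigned is not given. The same uncertainty holds for Klf4 and Klf9, which overlap other protein-coding genes in RefSeq, and for Klf7 and Klf10, which overlap long non-coding RNA genes.

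Klf4, the closest relative of Klf2 and a reprogramming factor that also represses smooth-muscle genes, went the other way. It was at 79.0, 77.5 and 79.2 CPM in Vector and at 189.3, 208.1 and 191.2 CPM in the libraries labelled FTO. Vector libraries differed by less than 2 CPM and all lay below the other group. Klf4 was 2.5-fold higher (log2 fold change 1.32, SE 0.0493, adjusted p = 2.6e-12), and 7.92% of tested genes rose further. Within each library the ratio of Klf4 to Klf2 CPM was 3.56 to 4.04 in Vector and 51.9 to 93.1 in the libraries labelled FTO. These ratios compare the same 2 genes across libraries, and say nothing of which gene had more transcripts.

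Klf5, an activator known from growing smooth muscle and from cardiac fibroblasts, had the largest rise of the 10 members. It was at 4.39, 5.10 and 4.99 CPM in Vector, or 60 to 76 counts. In the libraries labelled FTO it was at 22.7, 21.5 and 25.0 CPM, or 285 to 448 counts. The lowest of these was more than 4 times the highest Vector library. The log2 fold change was 2.26 (SE 0.113, 95% interval 2.02 to 2.5, adjusted p = 9.2e-11), and 3.84% of tested genes rose further. The ratio of Klf4 to Klf5 went from 16.4 ± 1.46 in Vector to 8.55 ± 1.03, so Klf5 rose by more than Klf4 within these libraries. RefSeq lists 2 pseudogenes of Klf5 and 1 of Klf4. None of the 3 was among the counted symbols, so how reads shared with them were treated is uncertain.

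Klf6 encodes an activator induced by injury, and Klf7 its nearest relative, known from neurons and fat cells. Both were lower in the libraries labelled FTO. Klf6 was at 45.6, 48.8 and 51.6 CPM in Vector and at 28.7, 28.5 and 30.8 CPM in the other group. It fell by 0.73 on the log2 scale (SE 0.0688, adjusted p = 2e-07), which is 1.66-fold lower. Klf7 was at 27.2, 31.9 and 29.8 CPM in Vector and at 19.3, 16.8 and 23.0 CPM in the other group. It fell by 0.58 (SE 0.104, adjusted p = 0.00017), and its libraries varied more, relative to their mean, than those of Klf6. Neither gene overlapped between the groups. The ratio of Klf6 to Klf7 was 1.53 to 1.73 in Vector and 1.34 to 1.7 in the libraries labelled FTO, and these ranges overlapped.

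**Figure D2:**
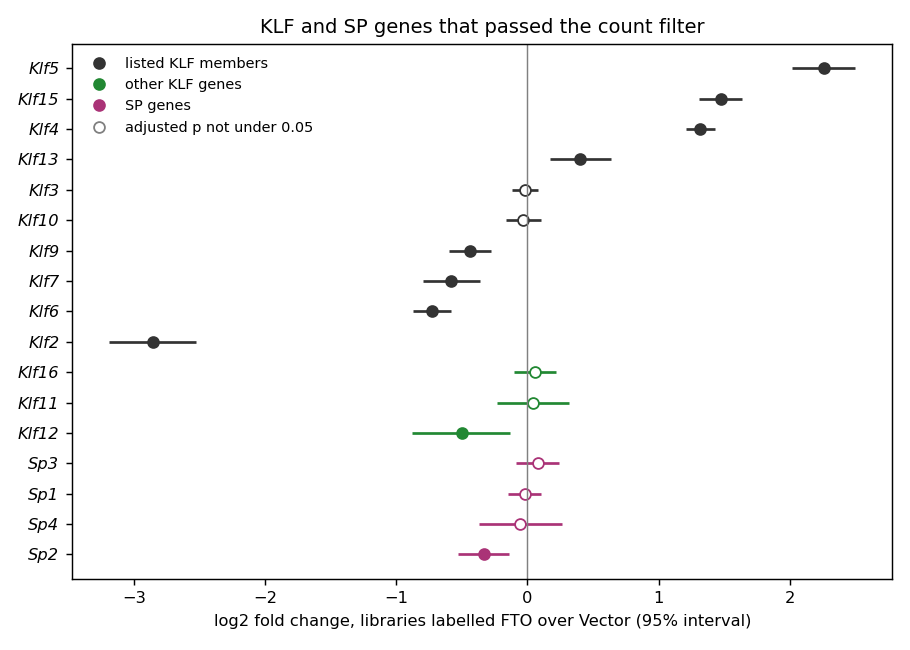
Log2 fold change, libraries labelled FTO against Vector, with its 95% interval for the 10 members (black), the other KLF genes (green) and the SP genes (purple) that passed the count filter, with open points where the adjusted p was not under 0.05. Members run from Klf5 at 2.26 to Klf2 at -2.86, while the other KLF and SP genes lie between -0.5 and 0.08. The members were chosen with earlier results of these data known, so the contrast is only a description.

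Klf9, Klf10 and Klf13 encode the Sin3A-binding members. Klf9, which glucocorticoid and thyroid hormone are known to induce, was at 93.6, 94.7 and 93.8 CPM in Vector. It was at 71.3, 59.2 and 77.1 CPM in the libraries labelled FTO, all lower, with replicate 2 the lowest. Klf9 fell by 0.44 on the log2 scale (SE 0.0745, adjusted p = 0.0001). Klf13, known to activate Ccl5 in T cells, was at 7.75, 7.85 and 7.96 CPM in Vector and at 10.4, 10.3 and 10.5 CPM in the other group. It was 1.32-fold higher (log2 fold change 0.40, SE 0.11, adjusted p = 0.00484). That is the smallest called change of the family, and it was lost in a test against a change of 1.2-fold (adjusted p = 0.0804).

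Klf10, first known as an early gene induced by TGF-β, was at 49.7, 47.1 and 49.0 CPM in Vector and at 45.5, 50.1 and 47.1 CPM in the libraries labelled FTO. The groups overlapped. The log2 fold change was -0.03 (95% interval -0.16 to 0.10, adjusted p = 0.658), which bounds the ratio to 0.894 to 1.07. Its nearest relative Klf11 also did not pass (8.66 ± 0.988 and 8.97 ± 0.958 CPM, adjusted p = 0.776). The ratio of Klf9 to Klf13 was 11.8 to 12.1 in Vector and 5.76 to 7.35 in the other group, so the Sin3A-binding members did not keep their proportions.

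Klf15, a regulator of amino acid and glucose metabolism that is known to hold back connective tissue growth factor in cardiac cells, was at 15.4, 13.2 and 14.1 CPM in Vector. It was at 39.8, 40.2 and 38.4 CPM in the libraries labelled FTO, well above every Vector library. It was 2.78-fold higher (log2 fold change 1.48, SE 0.0791, adjusted p = 2.1e-10), and 6.92% of tested genes rose further. Of 8 cardiomyocyte markers, 7 were higher and 1 was lower, beside 33.2% and 32.8% of all tested genes. The summed level of these markers went from 1675.0 to 1705.4 CPM in Vector to 2600.1 to 2677.9 CPM in the libraries labelled FTO. Among them Myh6 went from 192.1 to 495.9 CPM, whereas Tnnt2 went from 769.8 to 648.7 CPM. Their part in the level of Klf15 was not tested.

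**Figure D3:**
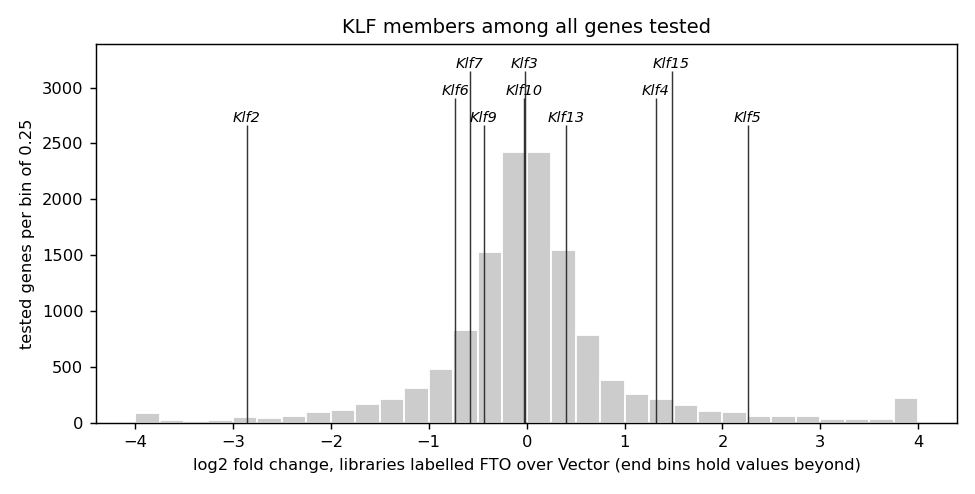
Histogram of the log2 fold changes of the 12941 tested genes in bins of 0.25 (vertical axis, genes per bin), with a line for each of the 10 members. Klf2 and Klf5 lie in the sparse tails, Klf4 and Klf15 on the right shoulder, and Klf3 and Klf10 at the centre.

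Summed over the 10 members, the level was 471.1 ± 7.28 CPM in Vector and 560.3 ± 10.3 CPM in the libraries labelled FTO. Klf4 took 16.7 ± 0.361% of the sum in Vector and 35.0 ± 2.1% in the other group. Klf15 went from 3.01 ± 0.277% to 7.04 ± 0.28% and Klf5 from 1.02 ± 0.0682% to 4.12 ± 0.26%. In contrast, Klf9 went from 20.0 ± 0.321% to 12.3 ± 1.53%, Klf6 from 10.3 ± 0.48% to 5.24 ± 0.139% and Klf2 from 4.4 ± 0.347% to 0.496 ± 0.14%. Klf3 lost share, from 26.3% to 21.9%, since the sum rose while its own level did not pass the test. These are shares of reads, which also depend on transcript length, and lengths were not used here. No order of levels between members is given for that reason.

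**Figure D4:**
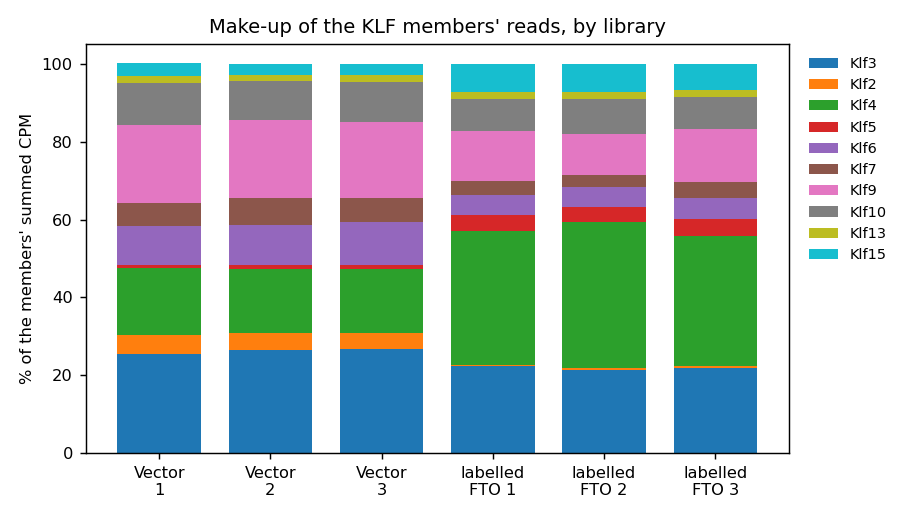
Share of the members' summed CPM (%) taken by each of the 10 members, with 1 bar per library. The 3 Vector bars are alike, and in the 3 bars labelled FTO the Klf4 share is larger (35.0% against 16.7% on average) and the Klf2 share is hardly visible (0.496%).

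The rest of the family and the SP factors, which share the zinc fingers, showed small differences. Of the other 7 KLF genes, 3 were tested and 1, Klf12, was called. By comparison, 65.9% of all tested genes were called. Klf16, another Sin3A-binding gene, was at 24.7 ± 0.918 and 25.8 ± 0.874 CPM (adjusted p = 0.484). Klf1, Klf8, Klf14 and Klf17 had at most 13 counts in any library. Of 9 SP genes, 4 were tested and 1, Sp2, was called, from 27.1 ± 2.39 to 21.6 ± 1.96 CPM (log2 fold change -0.33, SE 0.0903, adjusted p = 0.00455). Sp1, the general activator of GC-box promoters, was at 136.1 ± 7.07 and 133.7 ± 9.43 CPM (adjusted p = 0.724). The difference between the members and these relatives was not tested, and the members were chosen with earlier results of these data known.

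Next, genes of KLF partner proteins were examined. Of 10 cofactors and ubiquitin ligases, 1 was higher, 6 were lower and 3 did not pass, with a median log2 fold change of -0.29. Of all tested genes, 33.2% were higher and 32.8% lower. The 7 called of 10 lie near the 65.9% of all tested genes that were called. The CtBP gene Ctbp2 was at 60.4, 59.6 and 57.9 CPM in Vector and at 36.5, 37.5 and 37.1 CPM in the libraries labelled FTO. It fell by 0.68 on the log2 scale (SE 0.0569, adjusted p = 5.1e-08). Wwp1, a ligase known to act on KLF2 and KLF5 proteins, went from 39.7 ± 0.146 to 26.2 ± 3.22 CPM (log2 fold change -0.60, adjusted p = 1.1e-05). Ep300, an acetyltransferase and coactivator, had a log2 fold change of -0.46 (adjusted p = 0.0173), but its groups overlapped. The Ep300 call was lost without Vector replicate 2 (adjusted p = 0.0773) and without FTO replicate 1 (0.0583). Hdac1, a deacetylase, was the one higher gene, at 130.1 ± 1.68 and 145.0 ± 1.24 CPM (log2 fold change 0.16, adjusted p = 0.00426). Ctbp1, the other CtBP gene, had a log2 fold change of -0.11 (adjusted p = 0.029), and its call was lost without Vector replicate 1 (adjusted p = 0.0895), without Vector replicate 2 (0.0851) and without FTO replicate 1 (0.0767). Hdac2 and Kat2b were also lower, and Sin3a, Crebbp and Fbxw7 did not pass.

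Among 8 genes known to act upstream of KLF genes, 7 were tested, of which 3 were higher, 1 was lower and 3 did not pass. Of all tested genes, 65.9% were called, with 33.2% higher and 32.8% lower. Nr3c1, the glucocorticoid receptor, which is known to induce Klf9 and Klf15, was at 108.3, 106.8 and 105.7 CPM in Vector. It was at 258.4, 273.5 and 280.0 CPM in the libraries labelled FTO (log2 fold change 1.34, SE 0.0451, adjusted p = 6.9e-13). Of these hormone-induced members, Klf15 rose and Klf9 fell. The thyroid hormone receptor genes Thra and Thrb also rose, from 32.4 ± 3.09 to 49.3 ± 4.75 CPM and from 16.4 ± 0.151 to 21.9 ± 1.73 CPM (adjusted p = 1.3e-05 and 0.00051). Mef2c, a factor known to drive Klf2 and Klf4 in endothelium, was at 59.5, 60.7 and 63.0 CPM in Vector and at 26.4, 24.5 and 24.0 CPM in the other group. It fell by 1.29 on the log2 scale (SE 0.0643, adjusted p = 8.7e-11), while Klf2 fell and Klf4 rose. Mef2a, Mef2d and Map2k5 did not pass, and Mapk7 had at most 2 counts in any library.

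Of 22 genes known as KLF targets in some tissue, 7 were higher, 12 were lower and 3 (S1pr1, Cdkn1a and Gpt) did not pass. Of all tested genes, 65.9% were called, with 33.2% higher and 32.8% lower. The targets' median log2 fold change was -0.31 and their median absolute log2 fold change was 1.29, beside 0.0 and 0.36 over all tested genes. The list was chosen with earlier results of these data known. Ccl5, a chemokine and known KLF13 target, had at most 1 count in any Vector library and was at 70.7 ± 2.05 CPM in the other group. That was at least 323-fold higher, against a floor of 3 counts per library. Thbd, the thrombomodulin gene that KLF2 and KLF4 are known to activate, was at 11.0, 9.73 and 10.1 CPM in Vector and at 59.0, 62.3 and 60.1 CPM in the other group (log2 fold change 2.56, adjusted p = 1.2e-13). Of these 2 activators, Klf2 fell and Klf4 rose. The proline dehydrogenase gene, listed as Prodh1 and known as a KLF15 target, went from 1.53 ± 0.482 to 10.6 ± 0.429 CPM (log2 fold change 2.78, adjusted p = 2.7e-09).

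The 3 largest decreases among the targets were those of Plau, Tagln and Acta2. Plau, which encodes urokinase and is a known KLF6 target, was at 85.7, 78.9 and 81.5 CPM in Vector and at 4.35, 2.57 and 3.07 CPM in the libraries labelled FTO (log2 fold change -4.62, adjusted p = 1e-14). Tagln and Acta2, contractile genes that KLF4 is known to repress in smooth muscle, went from 2818.6 ± 58.7 to 193.8 ± 7.13 CPM and from 5715.8 ± 65.1 to 484.7 ± 8.03 CPM. Their log2 fold changes were -3.86 and -3.56 (adjusted p = 3e-18 and 2.3e-18). A few further targets were chosen after their values were seen. Ctgf, which KLF15 is known to repress, went from 3665.5 ± 58.8 to 319.3 ± 28.3 CPM. Edn1, the endothelin gene that KLF2 is known to repress, went from 64.4 ± 1.5 to 10.4 ± 1.35 CPM, while Klf2 itself also fell. Nos3, endothelial nitric oxide synthase and a known KLF2 and KLF4 target, went from 0.609 ± 0.172 to 2.74 ± 0.351 CPM, while Klf2 fell and Klf4 rose. Lgals3, known to be repressed by KLF3, went from 318.6 ± 12.7 to 542.6 ± 7.56 CPM while Klf3 itself did not pass. All 4 passed the test (adjusted p at most 9.9e-06). Pdgfa, Ccnd1 and Bcat2 were also among the 12 lower targets, beside 7 higher ones. Pdgfa went from 58.3 ± 1.96 to 18.4 ± 1.99 CPM and Ccnd1 from 389.9 ± 5.2 to 207.2 ± 16.4 CPM. Bcat2 moved less, from 38.3 ± 1.32 to 32.9 ± 1.8 CPM (adjusted p = 0.00925). Whether any KLF protein took part in these differences was not tested.

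**Figure D5:**
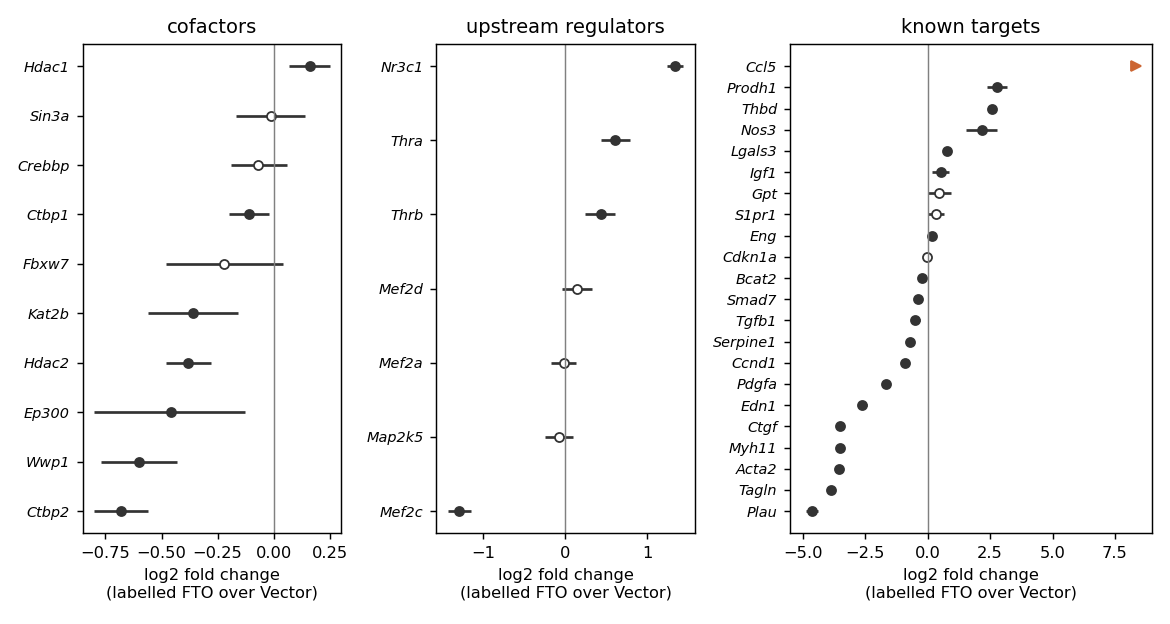
Log2 fold change with its 95% interval for the tested cofactor, upstream and target genes (horizontal axes differ between panels), with open points where the adjusted p was not under 0.05 and a triangle at the lower bound for Ccl5. Most cofactors lie below 0, Nr3c1 and Mef2c stand at opposite ends of the upstream genes, and the targets spread from -4.62 for Plau to the Ccl5 bound.

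Finally, the genes whose pattern over the 6 libraries was most like that of Klf5 and Klf2 were sought among 10028 genes with a mean of at least 100 counts. Likeness was the root mean square distance in log2 CPM, each gene centred on its own mean. Nearest to Klf5 were Ifih1 (distance 0.0658), Usp53 (0.0738) and Parp10 (0.0788). Ifih1 was at 15.2, 16.9 and 16.7 CPM in Vector and at 76.0, 65.6 and 77.6 CPM in the libraries labelled FTO. Nearest to Klf2 were Prex2 (distance 0.193), Map1b (0.214) and Lrrc17 (0.224). Prex2 was at 28.4, 27.8 and 30.4 CPM in Vector and at 3.37, 2.95 and 5.64 CPM in the other group. The 6 libraries form only 2 groups, so this likeness is a description.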

How the data were processed

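RNA-seq libraries of NRCFs (3 Vector, 3 labelled FTO overexpression) were compared. The authors deposited raw counts, whole numbers per gene symbol, 1 file per library. The submitters' processing notes name Trimmomatic and the build rn6. The aligner, counter, annotation and use of strand are not given in the sources used here, so counts of overlapping genes and of genes with pseudogene copies are uncertain. Groups came from the genotype label and replicate numbers from the titles.

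Genes were kept with filterByExpr (minimum count 10), scaled by TMM (factors 0.995 to 1.005) and compared by the edgeR 4.0.16 quasi-likelihood test in R 4.3.3 with no covariate and Benjamini-Hochberg adjustment over 12941 genes. These held 99.9% of the counts of each library. Alternatives used DESeq2 1.42.0, limma-voom (limma 3.58.1), glmTreat against a 1.2-fold change, other scalings and filters, a replicate block and leaving out each library. The procedure was tested on simulated counts in which only a small part of the genes was changed. In these data 65.9% of tested genes were called, so that test does not cover a difference this broad. Intervals are 95%, and they and the floor of 3 counts cover counting error and replicate spread only.

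The members and gene lists were chosen with earlier results of these data known. All members were given values. From each other list at most the 3 largest called increases and decreases were, with any that a count of 5 or fewer refers to, and the 3 genes nearest by pattern to the members with the largest called rise and fall. Outside that rule, Ctgf, Edn1, Nos3, Lgals3, Pdgfa, Ccnd1, Bcat2, Ctbp1 and the marker genes given with values were picked once their values were known. Prodh and Ctgf were matched by older symbols.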

Additional observations from a re-analysis of the deposited data

How the results depend on the processing

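Across 14 alternatives, the members kept their calls and directions with 2 exceptions. Klf13 lost its call in the glmTreat test against a 1.2-fold change, which left 7 members called. Klf3, which was not called, had a log2 fold change of 0.001 without Vector replicate 3 and 0.002 without FTO replicate 2, within a range of -0.05 to 0.002 over the fits that left out 1 library. The number past 2-fold stayed at 4. The glmTreat test called 0 of the other KLF genes, 0 of the SP genes and 3 of the cofactors. Leaving out each library in turn called 0 to 1 of the other KLF genes. The cofactor count, 7 in the report, was 5 with DESeq2, which lost Ep300 (adjusted p = 0.0982) and Ctbp1 (0.0615), and it was 5 to 7 when each library was left out. Among the targets, DESeq2 lost Igf1 (adjusted p = 0.0952), glmTreat lost Eng and Bcat2, S1pr1 gained a call under 5 alternatives and Gpt under 1. With a replicate block, 8 members were called, and S1pr1 was the one listed gene whose call changed (adjusted p = 0.0375). For same-numbered libraries the correlation of deviations from the group means was 0.003, -0.069 and 0.021. For differently numbered ones it ran from -0.094 to 0.087. With 3 libraries per group these values cannot decide whether the numbers pair the samples, and the labels do not say. Scaling moved the median of all genes by less than 0.01 on the log2 scale. Depth limits the low genes: Klf2 rests on 29 to 66 counts per library labelled FTO, and 4 other KLF genes and 5 SP genes had too few counts to test.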
